A study of Mus musculus with 12 samples.

Results

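Of the 10 vascular genes examined here, the vasodilator peptide gene Adm rose and the Tek antagonist gene Angpt2 fell in the lung of pregnant mice, while Vwf and the growth factor gene Pdgfa rose in the liver. The liver changes passed the test in every alternative tried. The lung changes kept their direction but did not pass with the 6 lung arrays fitted alone. The genes encode secreted vascular growth factors (Vegfa, Adm, Angpt1, Angpt2, Pdgfa), receptors and co-receptors of endothelial cells (Kdr, Flt1, Tek, Eng) and von Willebrand factor (Vwf). Every probe set, the group of short probes that reads 1 transcript on the array, was taken if the platform annotation gave it 1 of these symbols and no other. The 10 genes stand among 18193 that the array names, and they have 19 probe sets among the 45037 that are not array controls: 4 for Flt1, 2 each for Vegfa, Adm, Angpt1, Angpt2, Eng and Pdgfa, and 1 each for Tek, Kdr and Vwf.

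Lung and liver were taken from female NOD/SCID mice, an inbred immunodeficient strain without functional T and B cells, that were 8 to 10 weeks old when the experiment began. Pregnant mice were at day 16 of gestation, and virgin mice of the same strain served as their controls. The 4 groups were pregnant lung, virgin lung, pregnant liver and virgin liver, with 3 arrays each, and every array carried a pool of RNA from 2 mice. The tissue was whole organ powder ground in liquid nitrogen, so no cell type was isolated. Pregnancy was sampled at this single day.

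Vascular endothelial growth factor A, the product of Vegfa, drives endothelial growth and permeability through the receptor Kdr, while Flt1 binds it tightly and can act as a decoy. Angiopoietin 1 activates the endothelial receptor Tek and keeps vessels quiescent; angiopoietin 2 mostly opposes it and loosens vessels for remodelling. Endoglin, from Eng, is a co-receptor for BMP ligands in endothelial cells. Adrenomedullin, from Adm, relaxes vessels and tightens the endothelial barrier. Vwf tethers platelets and is stored in endothelial Weibel-Palade bodies and in platelet granules, and PDGF-A acts on mesenchymal cells that carry the receptor Pdgfra.

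The deposited values are log2 expression values. Array medians lay between 4.49 and 4.56, and arrays of 1 group correlated at 0.992 to 0.996 against 0.840 to 0.853 between tissues. The mean level of 11 lung epithelial markers was 12.96 to 13.06 on lung arrays and 4.94 to 5.10 on liver arrays, and that of 11 hepatocyte markers was 4.31 to 4.66 on lung arrays and 13.45 to 13.54 on liver arrays, so each tissue carried its own markers. Probe sets for spiked-in control RNA averaged 5.33 and 4.95 on the arrays of pregnant and virgin liver pool 3, against 11.84 to 12.34 on the other 10. The labels name no batch, and liver changes are therefore also given within pools 1 and 2 and within pool 3. The number of arrays limits the precision, and p-values measure the spread between pools.

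A probe set was called when its limma p, adjusted by the Benjamini-Hochberg method over all 45037 probe sets of the comparison, was under 0.05. In lung, 3 of the 19 probe sets were called with pregnancy, 2 of Adm higher and 1 of Angpt2 lower. Over all probe sets 0.213% were called in lung, 0.0977% higher and 0.115% lower. In liver, 3 of the 19 were called and all were higher, 1 of Vwf and both of Pdgfa. Over all probe sets 8.16% were called in liver, 3.7% higher and 4.46% lower. The members' median log2 change was 0.07 in lung and -0.17 in liver, against -0.0043 and 0.0014 over all probe sets. At an unadjusted p under 0.05 there were 9 member probe sets in lung and 7 in liver, against 7.33% of all probe sets in lung and 20.9% in liver. The members were chosen with earlier results of these data known, and several probe sets read the same gene. These counts beside the shares of the whole array are therefore a description and not a test.

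**Figure D1:**
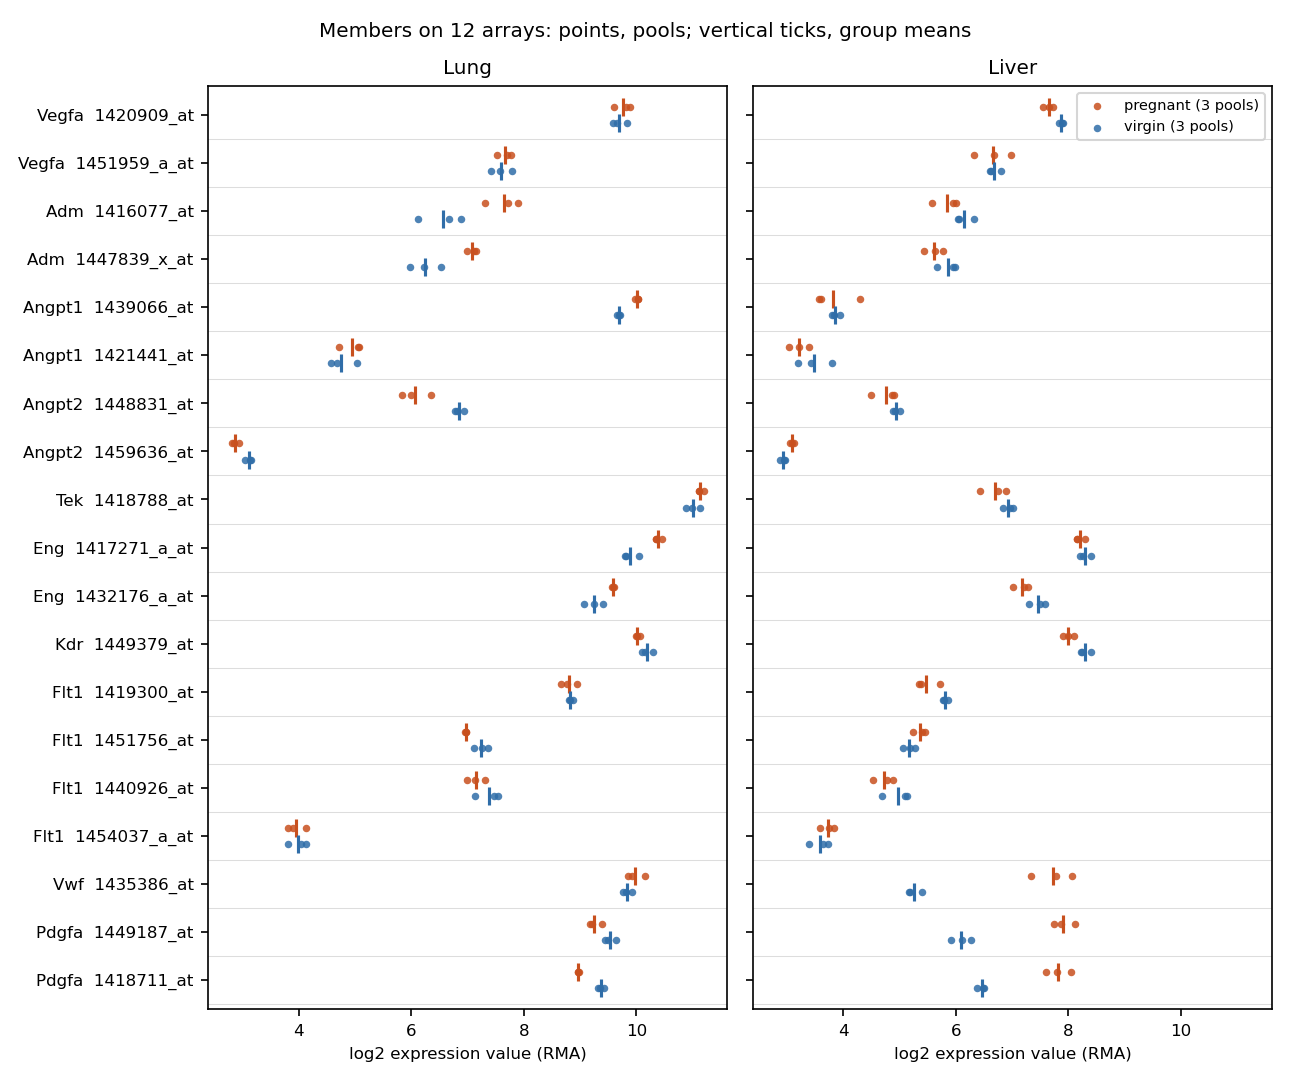
Log2 expression value of each of the 19 probe sets (x axis) on every array, with lung on the left and liver on the right. Orange points are the 3 pools of pregnant mice, blue points the 3 pools of virgin mice, and vertical ticks group means. The orange and blue points lie far apart for Adm and Angpt2 1448831_at in lung and for Vwf and Pdgfa in liver.

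Adm, the ligand with the largest change in lung, was higher in all 3 pools of pregnant lung than in any pool of virgin lung. Probe set 1416077_at read 7.90, 7.31 and 7.73 in pregnant lung, against 6.89, 6.66 and 6.12 in virgin lung. The log2 change was 1.09 ± 0.19 (SE, n = 3 pools per group, 95% interval 0.68 to 1.50, limma adjusted p = 0.0316), which is 2.13-fold. In bulk tissue, more or fewer cells of a type and more or less RNA per cell cannot be told apart. The second probe set, 1447839_x_at, whose suffix marks probes that may also bind other transcripts, read 7.16, 6.99 and 7.11 in pregnant lung and 6.23, 6.52 and 5.97 in virgin lung. Its change was 0.85 ± 0.14 (SE, adjusted p = 0.0223), so both probe sets rose.

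In liver neither Adm probe set was called. Probe set 1416077_at read 6.01, 5.58 and 5.95 in pregnant liver and 6.04, 6.05 and 6.32 in virgin liver, a difference of -0.29 (95% interval -0.70 to 0.12, adjusted p = 0.436). Probe set 1447839_x_at read 5.64, 5.44 and 5.77 in pregnant liver and 5.95, 5.66 and 5.98 in virgin liver, a difference of -0.25 (adjusted p = 0.349). The change in lung exceeded the change in liver by 1.38 ± 0.27 and 1.10 ± 0.20 (SE, limma test of the difference, adjusted p = 0.00927 and 0.00548).

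The Adm calls in lung rest on 3 against 3 pools and on a spread shared with the liver arrays. With the 6 lung arrays fitted alone the changes keep their size but the adjusted p is 0.0794 and 0.0502. For 1416077_at the adjusted p is 0.105 and 0.134 without virgin lung pool 2 or 3, 0.143 and 0.082 without pregnant lung pool 1 or 3, and 0.0548 without both arrays of liver pool 3. For 1447839_x_at it is 0.0691 and 0.116 without virgin lung pool 1 or 3, and 0.102, 0.0611 and 0.059 without pregnant lung pool 1, 2 or 3. The change itself stays between 0.87 and 1.26 for 1416077_at and between 0.71 and 0.99 for 1447839_x_at over all alternatives tried.

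The stretch before the start of Adm is shown because both of its probe sets rose together in lung. It is the 250 bases upstream of the RefSeq start, on GRCm38.p6 at chr7:110627407-110627656, plus strand, with 56.8% G and C. Capitals mark CCGCCC, the reverse complement of GGGCGG, and TTATAA, which holds TATAA on both strands.
Adm: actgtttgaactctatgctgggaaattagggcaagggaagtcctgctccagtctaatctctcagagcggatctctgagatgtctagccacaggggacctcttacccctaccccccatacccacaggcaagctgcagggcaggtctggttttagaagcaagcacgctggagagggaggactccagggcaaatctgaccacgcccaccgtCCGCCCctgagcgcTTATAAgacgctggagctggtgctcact
The overlapping TATAA matches begin 28 and 27 bases before the start, and GGGCGG begins 42 bases before it. Among 32536 promoter windows of the same length, 22.72% hold TATAA and 32.97% hold GGGCGG on either strand. ACGTG, a form of the core of the hypoxia response element, is not among these 250 letters, and 16.65% of the windows hold ACGTG. The form GCGTG was not searched for in the windows, and its reverse complement, CACGC, is among the letters shown. Whether the stretch holds a working response element was not tested.

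Among the 11 measured genes of the adrenomedullin axis (receptor, relatives and processing enzymes), 1 rose and 0 fell in lung, and 0 rose and 2 fell in liver. Counted with 1 probe set per gene, 0.121% of 18193 genes were called higher and 0.209% lower in lung, and 4.92% higher and 6.22% lower in liver. The one that rose in lung was Calcb, a calcitonin gene-related peptide gene, at 5.55 ± 0.23 in pregnant lung and 4.61 ± 0.23 in virgin lung (SD, n = 3, change 0.94, adjusted p = 0.0147). The Calcb call was lost without virgin lung pool 2 or 3 (adjusted p = 0.087 and 0.086) and without pregnant lung pool 1 (0.074). The receptor genes were not called: Calcrl, the receptor, was at 12.07 in pregnant lung and 11.87 in virgin lung, and its partner Ramp2 at 12.76 and 12.45 (adjusted p = 0.752 and 0.706). In liver Mme, an endopeptidase that degrades small peptides, fell by 0.83 and Pam, the enzyme that amidates adrenomedullin, fell by 0.39 (adjusted p = 0.001 and 0.0468), the Pam call in 2 of the 12 fits without 1 array. The axis had a median change of -0.04 in lung and -0.06 in liver, against -0.0084 and -0.0083 over all genes.

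Vegfa was not called in either tissue. Probe set 1420909_at read 9.82, 9.61 and 9.89 in pregnant lung and 9.59, 9.65 and 9.83 in virgin lung, and these ranges overlap. The difference was 0.08 (95% interval -0.14 to 0.30, adjusted p = 0.987). Probe set 1451959_a_at read 7.53, 7.78 and 7.70 in pregnant lung and 7.42, 7.58 and 7.79 in virgin lung, again overlapping, with a difference of 0.07 (interval -0.25 to 0.39). In liver 1420909_at read 7.56, 7.74 and 7.66 in pregnant mice, below all 3 virgin values of 7.88, 7.90 and 7.84, yet the difference of -0.23 (interval -0.45 to -0.0030) did not pass (adjusted p = 0.231). The other Vegfa probe set read 6.97, 6.68 and 6.32 in pregnant liver and 6.60, 6.81 and 6.63 in virgin liver, where the groups overlap.

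A list of 11 other genes held VEGF ligands, receptors and co-receptors, and also Sparc, Esm1, Thbs1 and Vash2. In lung 0 of these genes rose or fell, with a median change of -0.06. In liver 0 rose and 2 fell, with a median of -0.05. Those 2 were the co-receptor genes Nrp2, at 6.57 ± 0.031 in pregnant liver and 7.01 ± 0.21 in virgin liver (SD, n = 3, change -0.45, adjusted p = 0.0258), and Nrp1, at 8.94 ± 0.066 in pregnant liver and 9.32 ± 0.14 in virgin liver (change -0.38, adjusted p = 0.0443), each read by its brightest probe set. The dimmer probe sets of Nrp2 differed by 0.14, -0.03 and -0.01 without passing, and the mean of its probe sets differed by -0.09 (adjusted p = 0.531), so the Nrp2 call rests on 1 probe set. Of the dimmer ones of Nrp1, 1448944_at fell by 0.44 (adjusted p = 0.0167), while the other 2 differed by -0.31 and 0.17 without passing. The 1448944_at call was lost with the 6 liver arrays alone (adjusted p = 0.0913). It was also lost without virgin liver pool 1 or 2 (0.0644 and 0.0781) and without pregnant liver pool 2 (0.0546). A dimmer probe set of Thbs1, an inhibitor of vessel growth, rose by 0.96 in lung (1450377_at, adjusted p = 0.0221), and its brighter one was higher by 0.71 without passing (adjusted p = 0.282). The ligands Vegfc and Vegfd of lymphatic vessels were at 7.30 and 9.38 in pregnant lung and at 7.48 and 9.56 in virgin lung, not called.

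Angpt2, the context-dependent antagonist of Tek, fell in lung. Probe set 1448831_at read 6.35, 6.0 and 5.83 in pregnant lung, against 6.81, 6.78 and 6.93 in virgin lung, so every pregnant value lies below every virgin value. The log2 change was -0.78 ± 0.14 (SE, 95% interval -1.08 to -0.49, adjusted p = 0.0301), a level 1.72-fold lower. In liver the same probe set read 4.87, 4.50 and 4.90 in pregnant mice and 4.91, 4.88 and 5.0 in virgin mice, where the groups overlap (difference -0.17, adjusted p = 0.527). The difference between the tissues' changes, -0.61 (95% interval -1.02 to -0.20), did not pass (adjusted p = 0.12). It passed with the mean of both Angpt2 probe sets (-0.51, adjusted p = 0.0188). It also passed without pregnant lung pool 1 (-0.75, adjusted p = 0.0397) and without pregnant liver pool 2 (-0.74, adjusted p = 0.0438).

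The second Angpt2 probe set, 1459636_at, lay between 2.81 and 3.14 on all 12 arrays, below the median of all values (4.53), so a signal above background is not shown. Its pregnant minus virgin difference was -0.24 in lung and 0.17 in liver, neither called. The lung call of 1448831_at has adjusted p = 0.0604 with the 6 lung arrays alone. It is 0.0774, 0.11 and 0.148 without virgin lung pool 1, 2 or 3, and 0.111 and 0.0852 without pregnant lung pool 2 or 3. With the mean of both probe sets in its place the change is -0.51.

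Angpt1, the agonist of Tek, has 1 bright and 1 dim probe set. The bright one, 1439066_at, read 10.02, 9.97 and 10.03 in pregnant lung and 9.67, 9.69 and 9.71 in virgin lung. The groups do not overlap and sit close together within each group, but the difference of 0.32 (95% interval -0.0043 to 0.65) did not pass (adjusted p = 0.694), nor did it in any of 25 alternatives. In liver it read 3.56, 4.30 and 3.60 in pregnant mice and 3.84, 3.94 and 3.79 in virgin mice, all below the median of all values. The dim probe set, 1421441_at, read 4.71, 5.06 and 5.06 in pregnant lung and 5.03, 4.57 and 4.68 in virgin lung, and 3.03 to 3.38 in pregnant liver and 3.19 to 3.80 in virgin liver, with no call.

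Among 7 further genes listed with the angiopoietins and Tie receptors (Angpt4, Angptl1, Angptl4, Tie1, Ptprb, Dok2 and Svep1), 1 rose in lung and 1 fell in liver. Angptl4, an angiopoietin-like inhibitor of lipoprotein lipase that does not bind Tek, was at 8.48 ± 0.61 in pregnant lung and 6.92 ± 0.37 in virgin lung (SD, n = 3, change 1.56, adjusted p = 0.0204), and the mean of its 2 probe sets rose by 0.90. The Angptl4 call was lost with the 6 lung arrays alone (adjusted p = 0.0736) and with a variance trend (0.069). It was also lost without virgin lung pool 2 or 3 (0.123 and 0.117) and without pregnant lung pool 1 or 2 (0.0761 and 0.08). Ptprb, an endothelial phosphatase that silences Tek, was at 8.79 ± 0.081 in pregnant liver and 9.13 ± 0.068 in virgin liver (change -0.34, adjusted p = 0.0361), a call that held in 4 of the 12 fits without 1 array. The list's median change was 0.05 in lung and -0.02 in liver. Tie1, the partner receptor of Tek, was at 7.93 in pregnant lung and 7.76 in virgin lung, not called (adjusted p = 0.966).

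Pdgfa rose in liver with both probe sets. Probe set 1449187_at read 7.75, 7.86 and 8.12 in pregnant liver, against 6.27, 5.91 and 6.12 in virgin liver. The change was 1.81 ± 0.12 (SE, n = 3 pools per group, 95% interval 1.55 to 2.08, adjusted p = 1.76e-07), or 3.51-fold. Probe set 1418711_at read 7.60, 7.79 and 8.04 in pregnant liver and 6.49, 6.51 and 6.38 in virgin liver. Its change was 1.35 ± 0.11 (SE, adjusted p = 1.02e-06), or 2.56-fold. No pregnant pool came within 1 log2 unit of a virgin pool on either probe set. Within pools 1 and 2 the 2 probe sets changed by 1.72 and 1.20, and within pool 3 by 2.00 and 1.66.

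In lung neither Pdgfa probe set was called. Probe set 1449187_at read 9.17, 9.21 and 9.39 in pregnant lung and 9.51, 9.64 and 9.44 in virgin lung, and 1418711_at read 8.96, 8.97 and 8.99 in pregnant lung and 9.32, 9.36 and 9.42 in virgin lung. Pregnant values lie below virgin values on both probe sets, with differences of -0.27 and -0.40 (adjusted p = 0.647 and 0.214). The change in lung minus the change in liver was -2.09 ± 0.17 and -1.75 ± 0.15 (SE, adjusted p = 4.17e-06 and 7.09e-06).

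The window before the most upstream RefSeq start of Pdgfa is shown because both of its probe sets rose in liver. It lies on GRCm38.p6 at chr5:138994945-138995194, minus strand, and is 72.4% G and C. Capitals mark CCGCCC, the reverse complement of GGGCGG, which begins 93 and 86 bases before the start.
Pdgfa: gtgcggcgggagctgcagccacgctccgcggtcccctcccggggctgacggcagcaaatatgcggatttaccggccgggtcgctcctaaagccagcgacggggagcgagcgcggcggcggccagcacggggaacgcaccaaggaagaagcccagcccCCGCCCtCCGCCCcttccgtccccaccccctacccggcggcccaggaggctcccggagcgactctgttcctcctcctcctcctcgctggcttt
It holds no TATAA, and a second RefSeq start of Pdgfa has 1 GGGCGG at 60 bases. The STAT motif TTCNNNGAA is held by 7.04% of the 32536 windows. Searched on both strands, it was found in 0 of the 9 windows of the 7 members with a promoter entry (Vegfa, Adm, Tek, Eng, Kdr, Flt1, Pdgfa).

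None of the 6 other PDGF ligand and receptor genes rose or fell in lung, and 0 rose and 1 fell in liver when each gene stands for its brightest probe set. The one that fell was Pdgfc, another ligand of Pdgfra (6.55 ± 0.31 in pregnant liver and 7.04 ± 0.073 in virgin liver, SD, n = 3, change -0.49, adjusted p = 0.0304). Its dimmer probe set, 1419123_a_at, fell by 0.57 (adjusted p = 0.0225). The call of this dimmer probe set was lost with the 6 liver arrays alone (adjusted p = 0.0616). It was also lost without virgin liver pool 2 or 3 (0.1005 and 0.0529) and without pregnant liver pool 1 or 2 (0.0695 and 0.093). Pdgfra itself gave opposite readings in liver: its brightest probe set was at 5.74 in pregnant and 6.07 in virgin liver, not called (adjusted p = 0.108), while the dim 1438946_at rose by 0.70 (4.35 in pregnant and 3.65 in virgin liver, adjusted p = 0.00194), below the median of all values in both groups. In lung Pdgfra was at 10.90 in pregnant and 10.70 in virgin mice, and the receptor-like Pdgfrl at 5.56 and 6.16, neither called (adjusted p = 0.8 and 0.275). The median change of the 6 genes was -0.0027 in lung and -0.04 in liver.

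**Figure D2:**
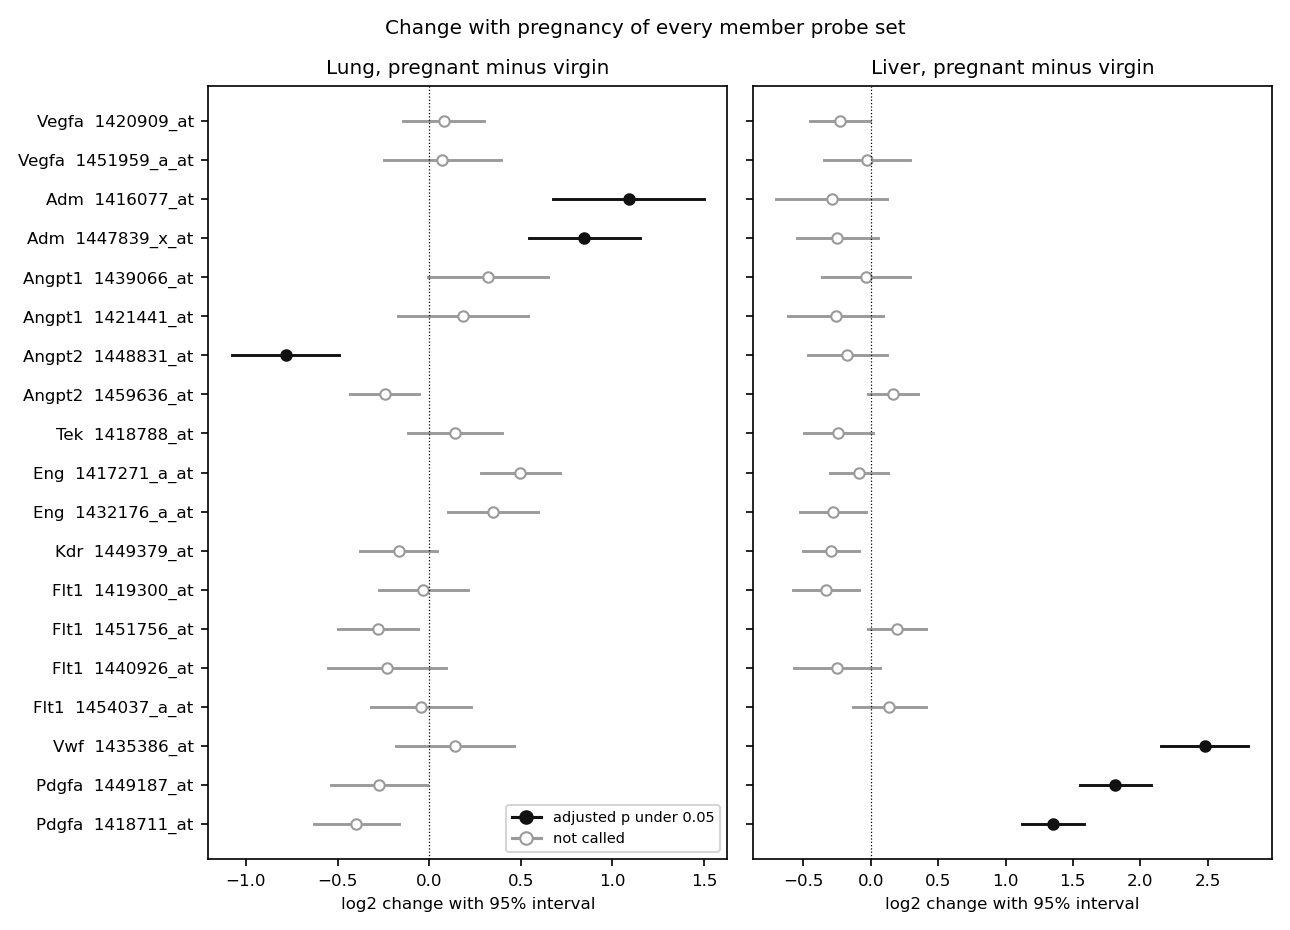
Log2 change, pregnant minus virgin, of each member probe set in lung (left) and liver (right), with 95% intervals from limma as bars. Filled black points passed an adjusted p of 0.05: Adm (1.09 and 0.85) and Angpt2 (-0.78) in lung, and Vwf (2.48) and Pdgfa (1.81 and 1.35) in liver.

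The receptors of VEGF were not called with pregnancy. Kdr, the main signalling receptor, read 9.99, 10.01 and 10.06 in pregnant lung and 10.16, 10.10 and 10.30 in virgin lung. The pregnant values are lower without overlap, and the difference of -0.17 did not pass (95% interval -0.38 to 0.04, adjusted p = 0.824). In liver Kdr read 7.99, 7.90 and 8.10 in pregnant mice and 8.25, 8.22 and 8.41 in virgin mice, also without overlap. The liver difference of -0.30 ± 0.098 (SE) did not pass (adjusted p = 0.0838), and it passed with 1 probe set per gene (adjusted p = 0.0475), with the mean of a gene's probe sets (0.0343), without dim probe sets (0.0427) and with a variance trend (0.0286).

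Flt1 has 4 probe sets that differ in their readings. In lung 1419300_at read 8.95, 8.66 and 8.78 in pregnant mice and 8.80, 8.82 and 8.87 in virgin mice, which overlap. Probe set 1451756_at read 6.98, 6.97 and 6.95 in pregnant lung, below its virgin values of 7.12, 7.26 and 7.36 (difference -0.28, adjusted p = 0.441). Probe set 1440926_at read 7.14, 6.99 and 7.32 in pregnant lung and 7.47, 7.13 and 7.55 in virgin lung, which overlap. The fourth, 1454037_a_at, lay between 3.39 and 4.14 on all arrays, below the median of all values.

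In liver the Flt1 probe sets pointed in different directions. Probe set 1419300_at read 5.38, 5.34 and 5.71 in pregnant liver and 5.77, 5.87 and 5.79 in virgin liver, a difference of -0.33 (95% interval -0.57 to -0.09, adjusted p = 0.0934). That difference passed without pregnant liver pool 3 (-0.45, adjusted p = 0.0183) and without both arrays of liver pool 3 (-0.46, adjusted p = 0.0363). Probe set 1451756_at read 5.40, 5.45 and 5.23 in pregnant liver and 5.05, 5.27 and 5.18 in virgin liver, a difference of 0.20 in the other direction (adjusted p = 0.3). Probe set 1440926_at read 4.77, 4.52 and 4.89 in pregnant liver and 5.13, 4.69 and 5.10 in virgin liver (-0.25, adjusted p = 0.383). Averaged over its probe sets, Flt1 differed by -0.06 in liver. Whether the probe sets read different transcripts of the gene was not tested.

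Tek, the angiopoietin receptor, read 11.11, 11.11 and 11.20 in pregnant lung and 10.99, 10.89 and 11.13 in virgin lung. The groups overlap, and the difference of 0.14 (95% interval -0.12 to 0.40) did not pass (adjusted p = 0.94). In liver it read 6.43, 6.76 and 6.90 in pregnant mice and 6.96, 7.01 and 6.84 in virgin mice, a difference of -0.24 (adjusted p = 0.271). Within liver pools 1 and 2 the difference was -0.39, and within pool 3 it was 0.06, so the direction was not the same in all pools.

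Eng stood just outside the threshold in lung. Probe set 1417271_a_at read 10.45, 10.36 and 10.36 in pregnant lung, against 10.05, 9.81 and 9.82 in virgin lung. The pregnant values are higher without overlap, by 0.50 ± 0.10 (SE, 95% interval 0.28 to 0.71, adjusted p = 0.0612). That difference passed with 1 probe set per gene (adjusted p = 0.0349), with the mean of both probe sets (0.03), without dim probe sets (0.0392), with array weights (0.0152) and with a variance trend (0.00864). The second probe set, 1432176_a_at, read 9.60, 9.57 and 9.59 in pregnant lung and 9.08, 9.24 and 9.40 in virgin lung, again without overlap (0.35, adjusted p = 0.354). Both carry a suffix for probes shared by several transcripts of the gene.

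In liver Eng was not called. Probe set 1417271_a_at read 8.16, 8.16 and 8.29 in pregnant liver and 8.27, 8.20 and 8.40 in virgin liver (-0.09, adjusted p = 0.688), and 1432176_a_at read 7.29, 7.02 and 7.22 in pregnant liver and 7.59, 7.29 and 7.49 in virgin liver (-0.28, adjusted p = 0.164). The change in lung exceeded that in liver by 0.59 ± 0.14 and 0.63 ± 0.16 (SE, adjusted p = 0.0346 and 0.0458). These calls are close to the threshold. Each held in 3 of the 12 fits that leave out 1 array (1417271_a_at without virgin lung pool 1, virgin liver pool 2 or pregnant liver pool 3, and 1432176_a_at without virgin lung pool 3, virgin liver pool 2 or pregnant liver pool 1). In the other fits the adjusted p went up to 0.0978 and 0.117, with differences between 0.53 and 0.71 over all fits. They were also lost without both arrays of liver pool 3 (adjusted p = 0.0623 and 0.0984), and with pool number within pregnancy state as a block shared by lung and liver (adjusted p = 0.0896 and 0.0936), although the labels do not say whether lung and liver pools came from the same mice.

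Among 16 genes of endothelial BMP and TGF-beta signalling around endoglin, 0 rose and 0 fell in lung, with a median change of 0.13, while 3 rose and 3 fell in liver, with a median of -0.07. Of the inhibitory SMAD genes, both induced by BMP signals, Smad6 was at 11.38 ± 0.071 in pregnant lung and 10.77 ± 0.16 in virgin lung (SD, n = 3, difference 0.60, adjusted p = 0.0512), and Smad7 at 9.20 and 8.67 (0.53, adjusted p = 0.226). In liver Smad6 rose by 0.88 and Smad7 fell by 0.85 (adjusted p = 0.000171 and 0.00189). Id1, a transcriptional inhibitor induced by BMPs, was at 9.05 ± 0.25 in pregnant liver and 7.77 ± 0.30 in virgin liver (change 1.28, adjusted p = 0.000129). Bmp6, a ligand of liver endothelial cells that controls iron balance, fell by 0.95 in liver (adjusted p = 0.000316). The endoglin partner Acvrl1 was at 9.68 in pregnant lung and 9.74 in virgin lung, and at 5.19 in pregnant liver and 5.02 in virgin liver, not called.

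Vwf, the platelet-tethering protein, gave the largest change of any member. It read 7.34, 7.79 and 8.07 in pregnant liver, against 5.39, 5.18 and 5.19 in virgin liver. The lowest pregnant pool lies almost 2 log2 units above the highest virgin pool. The change was 2.48 ± 0.15 (SE, n = 3 pools per group, 95% interval 2.16 to 2.80, limma adjusted p = 5.57e-08), or 5.58-fold. Within pools 1 and 2 it was 2.28, and within pool 3 it was 2.88.

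In lung Vwf was bright in both groups, with 9.93, 9.86 and 10.15 in pregnant mice and 9.93, 9.76 and 9.83 in virgin mice. These ranges overlap, and the difference of 0.14 (95% interval -0.18 to 0.46) did not pass (adjusted p = 0.97). The change in lung minus that in liver was -2.34 ± 0.21 (SE, adjusted p = 1.09e-05). The Vwf and Pdgfa calls in liver, and the differences between tissues of both genes, held in every alternative tried, from 2.28 to 2.67 for the Vwf change in liver.

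Genes that share function or storage with Vwf were not called in liver. Of 8 measured partners and Weibel-Palade body genes other than Angpt2, 0 rose and 0 fell in either tissue, with a median change of 0.15 in lung and 0.10 in liver. Selp, the adhesion receptor stored beside Vwf, was at 6.36 in pregnant and 6.13 in virgin liver (probe set of highest level, adjusted p = 0.526), and Rab27a, which helps release the granules, at 5.40 and 5.77 (adjusted p = 0.202). F8, the clotting factor carried by Vwf, was at 6.91 in pregnant and 6.97 in virgin liver, not called (adjusted p = 0.905). In lung the smallest p-values were those of Gp9, a subunit of the platelet receptor of Vwf, and Mmrn1, a carrier protein of platelets and endothelium, higher in pregnant mice by 0.79 and 0.51 without passing (adjusted p = 0.233 and 0.215). The Gp9 difference was 0.42 without pregnant lung pool 2, and the mean of the 2 Mmrn1 probe sets differed by 0.19.

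Platelets also carry Vwf, and their markers were read beside it. Of 13 platelet and megakaryocyte markers 1 rose and 0 fell in liver, 11 were above 0, and the median change was 0.23. The mean level of the list was 5.41 to 5.78 in pregnant liver and 5.24 to 5.37 in virgin liver, without overlap, and 3 of the 13 lay below the array median on every liver array. The one that rose was Ppbp, a platelet chemokine, at 7.16 ± 0.33 in pregnant liver and 5.14 ± 0.10 in virgin liver (SD, n = 3, change 2.02, adjusted p = 4.21e-05), whereas the integrin Itga2b was at 6.95 and 6.82 and Gp9 at 5.86 and 5.77. Among pregnant livers the list was highest in pool 2 (5.78) and Vwf in pool 3. Their part in the Vwf result was not tested.

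Endothelial markers did not rise in liver. Of the 17 pan-endothelial markers that are not members, 0 rose and 2 fell, with a median change of -0.14 and 3 above 0. Their mean level was 6.44, 6.40 and 6.65 in pregnant liver and 6.57, 6.69 and 6.69 in virgin liver. The 2 that fell were Cav1, the coat protein of caveolae, and Ptprb (changes -0.48 and -0.34, adjusted p = 0.0415 and 0.0361). Of the 12 fits without 1 array, the Cav1 call held in 3 and the Ptprb call in 4, and without pregnant liver pool 2 Cav1 differed by -0.30 (adjusted p = 0.15). Of 15 liver sinusoidal markers 0 rose and 0 fell, with a median of -0.19, and the dim 1456895_at of Cd209b, which is not the brightest of its gene, fell by 0.43 (adjusted p = 0.0307). Of 12 pericyte and smooth muscle markers 0 rose and 0 fell (median -0.06), where Myh11, smooth muscle myosin, differed by -0.49 (adjusted p = 0.0726, -0.19 with the mean of its probe sets). Rgs5, a pericyte marker, was at 9.24 in pregnant liver and 9.32 in virgin liver with its brightest probe set (difference -0.08, adjusted p = 0.817), and its dimmer 1420940_x_at differed by -0.38 (adjusted p = 0.118).

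**Figure D3:**
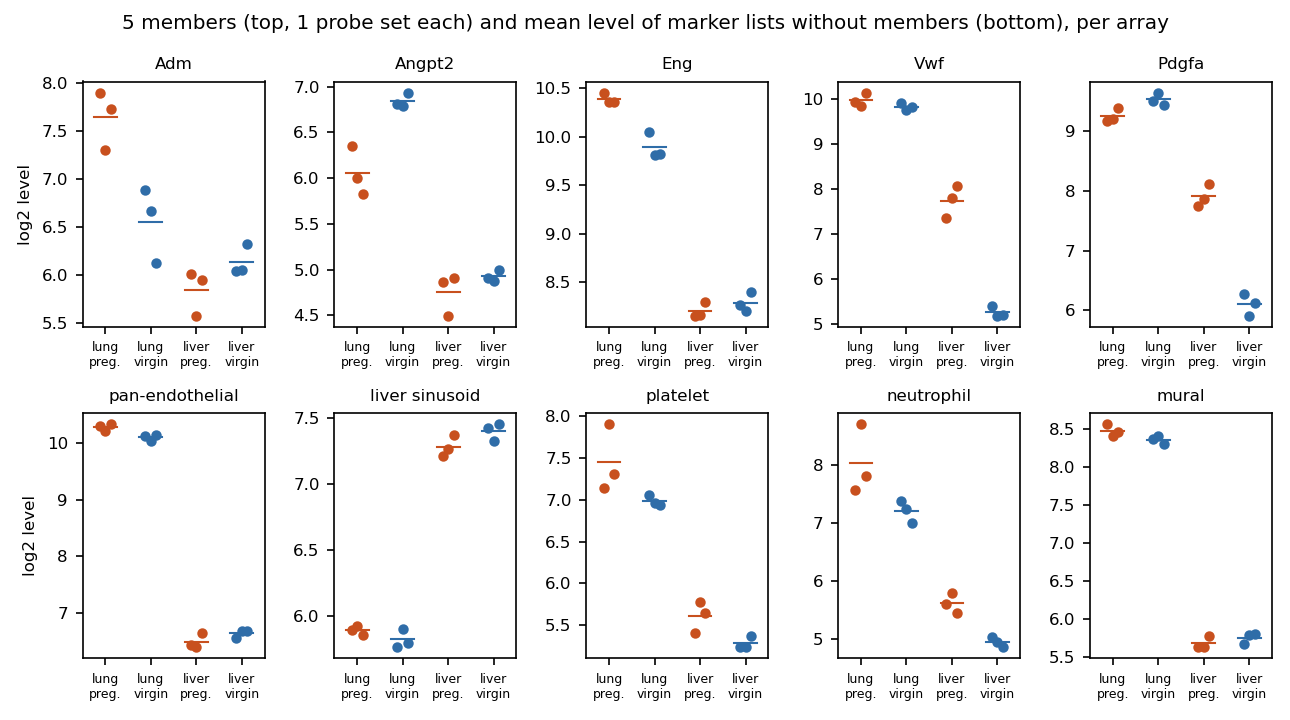
Log2 level on each array, with 3 pools per group, of 5 members (top row, 1 probe set each) and mean level of marker lists without members (bottom row); each panel has its own axis, horizontal lines are group means, orange is pregnant and blue virgin. Vwf and Pdgfa separate pregnant from virgin liver, while the pan-endothelial and sinusoid lists do not rise there.

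In lung the 17 pan-endothelial markers had 0 called in either direction, 15 above 0 and a median change of 0.15, and their mean level of 10.20 to 10.33 in pregnant mice lay above that of 10.03 to 10.14 in virgin mice. The smallest p-values belonged to the endothelial transcription factor Sox18 and to Egfl7, a secreted vessel protein, higher by 0.42 and 0.32 (adjusted p = 0.166 and 0.367). This small shift accompanies the larger Eng difference, and its part in it was not tested. Of 10 lung capillary markers 0 rose and 0 fell in lung (median 0.02), where Tmem100 and Cyp1a1 were higher by 0.43 and 0.64 without passing (adjusted p = 0.266 and 0.328, Cyp1a1 by 0.36 without pregnant lung pool 3). In liver 0 of the 10 rose and 2 fell, Tbx2 by 0.56 and Car4 by 0.48 (adjusted p = 0.0445 and 0.0411), both near or below the array median. Each of these calls held in 2 of the 12 fits without 1 array. Tbx2 differed by -0.32 without pregnant liver pool 1 (adjusted p = 0.135), and Car4 by -0.28 without both arrays of liver pool 3 (adjusted p = 0.281). Of 15 sinusoidal markers 0 were called in lung (median 0.11). Fcgr2b was higher by 0.47 (0.17 with the mean of its probe sets) and the dim 1456895_at of Cd209b by 0.50, without passing (adjusted p = 0.154 and 0.11). Of 12 mural markers 0 were called in lung (median 0.09), where Rgs5 was higher by 0.66 with its brightest probe set (0.37 with the mean of its probe sets) and Higd1b by 0.28 (adjusted p = 0.0826 and 0.725).

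Blood cell markers moved in lung beside Adm. Of 11 neutrophil markers 2 rose and 0 fell in lung, all 11 were above 0 and the median change was 0.89. The calprotectin gene S100a9 was at 12.40 ± 0.41 in pregnant lung and 11.33 ± 0.27 in virgin lung (SD, n = 3, change 1.07, adjusted p = 0.0204), and the lectin gene Clec4e rose by 1.11 (adjusted p = 0.0273), or by 0.69 with the mean of its probe sets. Both calls were lost with the 6 lung arrays alone (adjusted p = 0.0796 and 0.0653). S100a9 also lost its call without virgin lung pool 1 or 3 or pregnant lung pool 2 (0.0545, 0.116 and 0.0611). Clec4e did so without virgin lung pool 2 or 3 or pregnant lung pool 1 or 2 (0.0848, 0.131, 0.0593 and 0.101). The list's mean level was 7.57, 8.71 and 7.81 in pregnant lung and 7.38, 7.25 and 6.99 in virgin lung. Platelet markers showed 0 calls in lung, a median of 0.44 and 12 of 13 above 0, with Clec1b and Itga2b higher by 0.87 and 0.44 (adjusted p = 0.214 and 0.186), and without pregnant lung pool 2 Clec1b was higher by 0.47. Pregnant lung pool 2 had the highest level of both lists but the lowest Adm reading of the 3 pregnant pools. The part of these cells in the Adm and Angpt2 results was not tested. In liver 3 neutrophil markers rose and 0 fell (median 0.34), S100a8 by 1.50, S100a9 by 1.28 and the granule protein gene Ngp by 1.89 (adjusted p = 0.00011, 0.000229 and 0.021). Among other settings, the Ngp call was lost with a variance trend, with array weights and without both arrays of liver pool 3 (adjusted p = 0.107, 0.0783 and 0.104).

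Adm and Vegfa are both induced by hypoxia in many cells, so the hypoxia-inducible genes were read beside them. In lung 0 of 23 rose or fell, 14 were above 0 and the median change was 0.10. Epas1, an oxygen-regulated transcription factor of endothelium, had 1 probe set (1449888_at) at 9.87 in pregnant lung and 9.48 in virgin lung, and the collagen hydroxylase P4ha2 was at 8.01 and 7.69, neither called (adjusted p = 0.326 and 0.428). In liver 5 rose and 4 fell, with a median of -0.19. Ndrg1, a stress-induced gene, rose by 2.66 (9.32 ± 0.38 in pregnant liver, against 6.66 ± 0.21 in virgin liver, SD, n = 3, adjusted p = 9.02e-08), and Ddit4, an inhibitor of mTOR signalling, rose by 0.77 (adjusted p = 0.00473). The aldolase gene Aldoc fell by 1.01 (adjusted p = 0.00233), or by 0.47 with the mean of its probe sets. The glycolytic regulator Pdk1 fell by 0.80 with its brightest probe set (adjusted p = 0.000259), and its dimmer 1423747_a_at and one further probe set fell by 1.18 and 0.59 (adjusted p = 5.8e-05 and 0.0128).

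Other genes of vascular tone were not called in lung. Of 16 genes of nitric oxide, endothelin and related signals, 0 rose and 0 fell in lung (median 0.02), where the natriuretic peptide clearance receptor Npr3 (1448024_at) was higher by 0.77 and a probe set of the endothelin gene Edn3 that is not its brightest differed by -0.46, without passing (adjusted p = 0.284 and 0.307). Without 1 array this Npr3 probe set ranged from 0.44 (without pregnant lung pool 1) to 1.08 (without pregnant lung pool 3, adjusted p = 0.0315). In liver 0 rose and 2 fell (median -0.17). Ddah1, which degrades an inhibitor of nitric oxide synthase, was at 6.40 ± 0.32 in pregnant liver and 9.29 ± 0.19 in virgin liver (SD, n = 3, change -2.90, adjusted p = 3.75e-09), larger in size than the Vwf change and opposite in sign. The brightest probe set of Npr3 fell by 0.84 in liver (adjusted p = 0.0409), where it lay below the median of all values, at 3.40 in pregnant mice and 4.23 in virgin mice. Its other probe sets differed by -0.11 and 0.20, the mean of the 3 by -0.25 (adjusted p = 0.568), and the call held in 3 of the 12 fits without 1 array. A probe set of Edn3 that is not its brightest fell by 0.68 in liver (adjusted p = 0.0138). Of 10 vascular Notch genes 0 were called in lung (median 0.15, with the ligand Dll1 higher by 0.48 and the receptor Notch1 by 0.30, or by 0.18 without pregnant lung pool 2, adjusted p = 0.259 and 0.623). In liver 1 of the 10 rose and 0 fell (median 0.12), the ligand Jag1 by 0.38 (adjusted p = 0.0377). With the mean of its probe sets Jag1 differed by 0.19 (adjusted p = 0.121), and the call held in 4 of the 12 fits without 1 array.

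Of the tissue markers 1 gene was called with pregnancy in its own tissue. Of 11 lung epithelial markers 0 were called in lung (median 0.01, changes of the brightest probe sets -0.20 to 0.07), and other probe sets of Napsa and Ager differed by 0.32 and 0.27 without passing (adjusted p = 0.366 and 0.781, Ager by 0.17 without pregnant lung pool 1). Of 11 hepatocyte markers 1 rose in liver (median 0.03), the fetuin gene Ahsg by 0.37 (adjusted p = 0.0262). The Ahsg call was lost with the 6 liver arrays alone (adjusted p = 0.09), with array weights (0.0567) and without both arrays of liver pool 3 (0.0619). It was also lost without virgin liver pool 1 or 2 (0.089 and 0.062) and without pregnant liver pool 1 or 2 (0.072 and 0.062). Read in the other tissue, 0 of the lung epithelial list were called in liver with the brightest probe set of each gene (median 0.02), although a dim probe set of Napsa rose by 0.47 (1430744_at, adjusted p = 0.0116). Of the hepatocyte list 0 were called in lung (median -0.03, with the dim readings of Fgb and Serpinc1 higher by 0.42 and 0.38, adjusted p = 0.127 and 0.284).

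**Figure D4:**
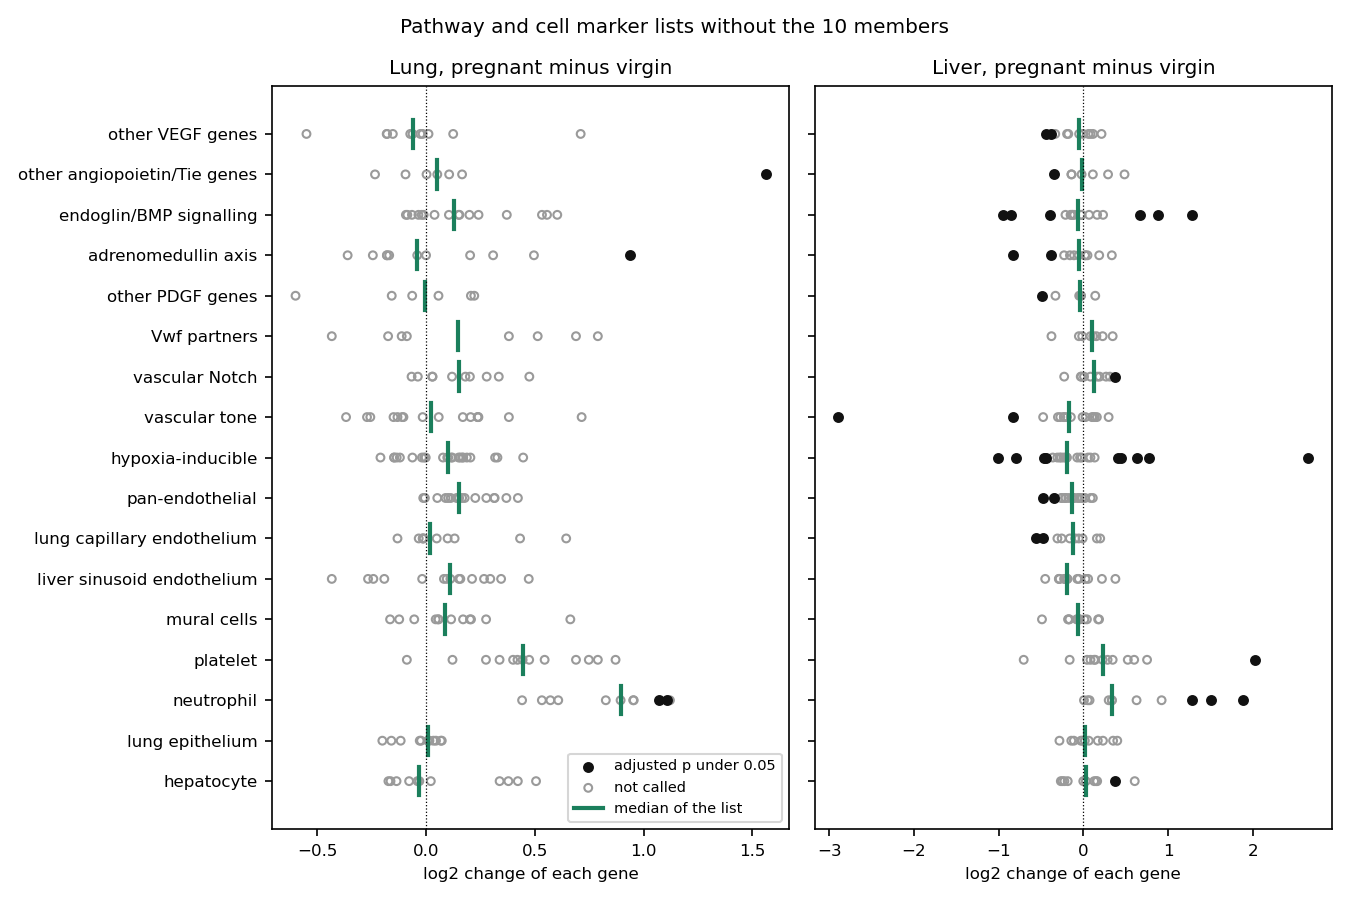
Log2 change with pregnancy of each gene (points) in 17 lists of vascular pathways and cell markers without the 10 members, in lung (left) and liver (right); green bars are list medians and filled points passed an adjusted p of 0.05. In lung the neutrophil and platelet medians (0.89 and 0.44) stand to the right of the other lists, and in liver Ddah1 and Ndrg1 lie farthest from 0.

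Without pregnancy, the members belonged to the lung more than to the liver. Of the 19 probe sets 17 were called higher in virgin lung than in virgin liver and 0 lower. Over all probe sets 55.9% were called in this comparison, 26.2% higher and 29.7% lower in lung. The largest differences were those of Angpt1 1439066_at (5.83), Vwf (4.59), Tek (4.07), the Pdgfa probe sets (3.43 and 2.91) and Flt1 1419300_at (3.02). Because Angpt1 lay below the median of all values in liver, its difference has no fold. The other Flt1 probe sets differed by 2.40, 2.08 and 0.41, Angpt2 1448831_at by 1.91, Kdr by 1.89, Vegfa by 1.82 and 0.91, Eng by 1.60 and 1.78, and Angpt1 1421441_at by 1.29.

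Adm differed little between the virgin tissues. Its probe sets were at 6.56 ± 0.39 and 6.24 ± 0.28 in virgin lung, against 6.14 ± 0.16 and 5.86 ± 0.18 in virgin liver (SD, n = 3). The differences of 0.42 and 0.38 gave adjusted p = 0.076 and 0.0345, and the pools overlap on both probe sets. The call of 1447839_x_at is lost with quantile normalization (0.14, adjusted p = 0.447), without virgin lung pool 1 or 2 (0.38 and 0.23, adjusted p = 0.069 and 0.182) and without virgin liver pool 2 (0.27, adjusted p = 0.144). Probe set 1416077_at passed without virgin lung pool 3 (0.64, adjusted p = 0.00958). In pregnant mice the same probe sets stood at 7.65 ± 0.31 and 7.09 ± 0.085 in lung and at 5.85 ± 0.24 and 5.62 ± 0.17 in liver. For Vwf and Pdgfa the gap between the tissues was smaller in pregnant mice: Vwf averaged 9.98 ± 0.15 in pregnant lung and 7.73 ± 0.37 in pregnant liver, against 9.84 ± 0.083 in virgin lung and 5.25 ± 0.12 in virgin liver. Pdgfa 1449187_at averaged 9.26 ± 0.12 in pregnant lung and 7.91 ± 0.19 in pregnant liver, against 9.53 ± 0.10 in virgin lung and 6.10 ± 0.18 in virgin liver.

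The readings of the pools did not overlap between pregnant and virgin mice for 11 of the 19 probe sets in lung (5 above, 6 below) and for 9 in liver (4 above, 5 below). Over all probe sets the groups did not overlap for 15.6% in lung and 22.6% in liver. In the test of the difference between tissues, 7 of the 19 were called (Adm, Eng and Pdgfa with 2 each and Vwf with 1), against 3.42% of all probe sets. That test uses the same arrays as the lung and liver comparisons. The members were chosen with earlier results known, so these counts too are only a description. Where a gene had several probe sets, both agreed in call for Adm in lung and for Pdgfa in liver, and Angpt2 had 1 of 2 called in lung.

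The probe sets whose readings most resembled those of the called members were sought over the 12 arrays, with each tissue's mean removed, among 20187 probe sets with 1 symbol and at least median brightness. For Adm 1416077_at they were Ctsh, a lysosomal protease (Pearson r = 0.962), Atp1b1, a sodium pump subunit (0.935), and the phosphatase gene Dusp3 (0.934), whose lung changes of 0.33, 0.30 and 0.25 were not called. For Angpt2 they were Chst14, Sult1c2 and Trim10 (0.94, 0.912 and 0.912), of which Trim10 fell by 0.60 in lung (adjusted p = 0.0469). For Vwf they were Stx18, a vesicle fusion protein gene (0.996), the translation factor subunit Eif2b4 (0.992) and Fndc3b (0.989), which rose in liver by 1.41, 1.46 and 1.95. For Pdgfa 1449187_at they were Gusb, a lysosomal glucuronidase (0.988), Aldh1a7 (0.987) and Trim27 (0.986), which rose in liver by 1.32, 1.63 and 0.35. The 12 points are shared arrays in 4 groups, so these values mainly describe a common difference between groups.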

How the data were processed

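Total RNA of lung and liver was labelled with biotin and measured on one-colour expression arrays. Per the submitters' processing notes, the authors made the deposited log2 expression values with RMA and the affy package, whose versions are not given in the sources used here, nor is which arrays were normalized together. RMA pulls values between arrays onto 1 distribution, so a shift of the whole array would not show. The 64 control probe sets were left out. Of the other 45037, 34945 had 1 gene symbol in the platform annotation, 932 several and 9160 none, and all 45037 were tested. No filter on dim probe sets was used, and the file gives no detection calls.

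The 12 arrays entered 1 linear model with a mean for each of the 4 groups (limma 3.58.1, R 4.3.3, 8 residual and 6.59 prior degrees of freedom), p-values were adjusted by the Benjamini-Hochberg method within each comparison, and 0.05 was the threshold. The step was tested on simulated data. Groups came from the sample titles. Pool numbers were not taken as pairs, since the labels give them no meaning beyond the pool: deviations from the group means of pools with the same number correlated at -0.0143 to 0.0725 in lung and at -0.0832 to 0.114 in liver between pregnant and virgin mice, and at -0.0773 to 0.0749 between lung and liver of the same state.

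In lists, a gene stood for its brightest probe set. From each list up to 4 called genes with the largest change were named, or, in a list without a call, up to 2 genes with the lowest p-values, and other genes named, such as receptors of the members, were chosen after their values were seen. The members and lists were chosen with earlier results of these data known. Promoter sequences are from RefSeq on GRCm38.p6 for 7 of the 10 members, and no entry was found for Angpt1, Angpt2 and Vwf. Alternatives covered the arrays fitted, the probe sets used, the normalization, the variance model, blocks, the threshold and leaving out each array, and a block of pool number across lung and liver was added after seeing the data.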

Additional observations from a re-analysis of the deposited data

Results flagged for a closer look

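The change with pregnancy differed between lung and liver for 7 of the 19 probe sets in limma's test of that difference, given here as the log2 change in lung minus that in liver. Adm was higher in its lung change by 1.38 (1416077_at, adjusted p = 0.00927) and 1.10 (1447839_x_at, adjusted p = 0.00548). Eng was higher in its lung change by 0.59 (1417271_a_at, adjusted p = 0.0346) and 0.63 (1432176_a_at, adjusted p = 0.0458), although neither probe set was called within lung or within liver. Vwf had a difference of -2.34 (adjusted p = 1.09e-05), with 2.48 in liver and 0.14 in lung. Pdgfa had differences of -2.09 (1449187_at, adjusted p = 4.17e-06) and -1.75 (1418711_at, adjusted p = 7.09e-06), with every pregnant pool above the virgin pools in liver and below them in lung. No group held more than 3 arrays, so single arrays were not tested as outliers.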

How the results depend on the processing

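The Vwf and Pdgfa calls in liver and their differences between tissues passed in every alternative, as did the Adm differences between tissues at 0.05, and no result turned its sign from a called value. In lung 3 member probe sets were called, and 0 with the 6 lung arrays alone or at an adjusted p under 0.01. Leaving out 1 array gave 0 to 3: 0 without virgin lung pool 3 or pregnant lung pool 3, 1 without any other lung array, and 3 without any liver array. All probe sets called in lung ranged from 27 at the stricter threshold and 34 without virgin lung pool 2 or 3 to 250 with a variance trend and 366 with array weights, against 96. In liver the count of member probe sets was 3 or 4 throughout, and over all probe sets 1826 to 4292 were called against 3675. In the difference between tissues 7 member probe sets of 4 genes were called, 4 with 1 probe set per gene (the same 4 genes), 4 without probe sets of shared sequence, and 5 to 7 without 1 array. Between virgin tissues 17 were called, 9 with 1 probe set per gene and 10 with the mean of a gene's probe sets, where only 10 values enter the fit. With pool number as a replicate block 3 member probe sets were called in lung and 3 in liver, 6 in the difference, where Eng 1432176_a_at missed with an adjusted p of 0.0544, and 17 between tissues. With pool number within each pregnancy state as a replicate block shared by lung and liver, chosen after seeing the data, 5 were called in the difference, without the 2 of Eng, and 16 between virgin tissues, without Adm 1447839_x_at (adjusted p = 0.0554). Of all single values under alternatives, 3062 kept their side, 234 lost a call, 38 gained one and 14 moved. With 3 arrays a group and no detection calls, small changes of dim probe sets are beyond what these data resolve.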
